A study of Mus musculus with 2 samples.

Results

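The genes Lcn2, Ltf, C3, Clu and Spp1 encode secreted proteins of mucosal defence and repair that have been linked to estrogen in the female reproductive tract. They were taken by name, and all 5 are among the 26897 genes listed in both the adult table (27998 genes) and the table of postnatal day 4, P4 (53573 genes). The samples were epithelial cells of C57BL/6 mouse oviduct, the tube that carries eggs from the ovary to the uterus. The tissue was dissociated with enzymes, and cells were sorted with antibodies to the epithelial surface protein Epcam and the leukocyte protein CD45 (gene Ptprc). Single cells were then profiled as 3' transcript counts on the 10x Chromium 3' V2 platform, in which a unique molecular identifier (UMI) marks each captured transcript. There was 1 library from adults at estrus and 1 from P4 pups. The adult age, the number of animals behind each library and any pooling are not given in the sources used here.

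Lipocalin 2, the product of Lcn2, binds bacterial siderophores and so keeps iron from microbes, while lactoferrin, encoded by Ltf, binds the iron itself. C3 is the central protein of the complement cascade, in which its cleaved form coats microbes for removal. Clusterin, from Clu, is an extracellular chaperone that also holds back the last step of complement. Osteopontin, from Spp1, is a phosphoprotein that binds integrins and CD44 and is made by bone cells, macrophages and a range of epithelia. In the rodent uterus Ltf and C3 are textbook estrogen-induced genes. Only 1 estrous stage was sampled here, so the estrogen link in the common name of these genes cannot be examined with these files.

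On GRCm38, with GENCODE M21 gene limits, Lcn2 lies on the minus strand at chr2:32384633-32388252 and Ltf on the plus strand at chr9:111019271-111042767. C3 lies on the minus strand at chr17:57203970-57228136, Clu on the plus strand at chr14:65968483-65981547 and Spp1 on the plus strand at chr5:104435118-104441050. At the 3' end, where this assay reads, no other annotated gene overlaps any of them. The RefSeq promoter table for GRCm38.p6 held 4 of the 5 genes. The 250 bases before each start site are shown because Lcn2, Ltf and C3 shared their main cell group in what follows, while Spp1 did not. They are Lcn2 chr2:32387798-32387989 (minus strand), Ltf chr9:111019042-111019270 (plus), C3 chr17:57228137-57228386 (minus) and Spp1 chr5:104434861-104435110 (plus). For Lcn2 and Ltf the 58 and 21 bases next to the start, which GENCODE annotates as untranslated transcript sequence, are left out of the print. The whole Lcn2 window lies within the GENCODE limits of the gene. For Lcn2, 139 of the 192 printed bases fall in an exon of another GENCODE transcript of the gene. Each runs 5′ to 3′ on the gene's strand, and capitals mark every match to a motif searched.
Lcn2: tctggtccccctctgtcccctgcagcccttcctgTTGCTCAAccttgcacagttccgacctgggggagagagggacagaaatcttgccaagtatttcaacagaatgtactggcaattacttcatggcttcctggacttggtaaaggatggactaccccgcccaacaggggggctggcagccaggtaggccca
Ltf: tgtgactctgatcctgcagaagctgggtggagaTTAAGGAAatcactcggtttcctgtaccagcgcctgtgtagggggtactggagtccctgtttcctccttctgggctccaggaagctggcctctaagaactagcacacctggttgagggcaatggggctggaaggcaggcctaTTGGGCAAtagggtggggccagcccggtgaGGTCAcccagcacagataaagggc
C3: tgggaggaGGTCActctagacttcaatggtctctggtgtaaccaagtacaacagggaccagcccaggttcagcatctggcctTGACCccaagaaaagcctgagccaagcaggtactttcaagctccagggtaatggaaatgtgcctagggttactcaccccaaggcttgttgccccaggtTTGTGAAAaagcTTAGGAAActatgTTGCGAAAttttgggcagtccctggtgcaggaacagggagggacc
Spp1: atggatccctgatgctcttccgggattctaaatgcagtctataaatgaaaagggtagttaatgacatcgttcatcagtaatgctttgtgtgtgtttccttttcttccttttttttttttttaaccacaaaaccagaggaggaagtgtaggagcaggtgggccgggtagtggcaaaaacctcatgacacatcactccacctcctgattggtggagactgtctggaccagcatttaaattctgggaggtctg

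The motifs were searched on both strands of the 250 bases: the estrogen response element GGTCANNNTGACC, its single arm GGTCA (which every match of the full element contains), TTNNGNAA for C/EBP factors, TTCNNNGAA for STAT factors, TGANTCA for AP-1, and the NF-kB motif. C3 had the single arm at 242 and 168 bases before its start, the latter on the opposite strand, and C/EBP letters at 70, 58 and 45 bases, the last matching on both strands. Ltf had the single arm at 45 bases and C/EBP letters at 217 and 75 bases. Lcn2 had C/EBP letters at 216 bases, on the opposite strand. No motif searched matched in the Spp1 window. The full element, STAT, AP-1 and NF-kB letters were in none of the 4 windows. Among 32536 RefSeq promoter windows of the same length, the single arm was in 35.3% and the C/EBP letters in 36.8%. The full element was in 0.0645%, NF-kB in 7.28%, STAT in 7.04% and AP-1 in 6.73%. These matches describe letters in the sequence, and no factor binding was measured.

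The adult library held 406 distinct cell barcodes with 502 to 16207 UMI each (median 3232), and the P4 library 263 with 1331 to 23372 (median 7585). No barcode occurred at both ages. Cells are grouped by the deposited cluster numbers. Adult clusters 0 (130 cells) and 4 (31) were called secretory-like, and clusters 1 (183) and 3 (37) multiciliated-like, from marker lists. Markers with a UMI in at least 10% of cells of either class were compared between the classes. All 14 such multiciliated markers were at least 2-fold lower in secretory-like cells, beside 24.2% of all such genes. Of 11 such secretory markers, 5 were at least 2-fold higher, beside 11.1%, and 1, Bpifb1, was lower. Cluster 3 had no marker of either list among its 10 leading genes, which were headed by Wfdc12, Ly6c1 and Ly6a. Cluster 5 (25 cells) was left unnamed because smooth muscle genes such as Myh11, Des and Acta2 led it. P4 cluster 0 (168 cells) was led by Deup1, Dynlrb2 and Foxj1, and P4 cluster 1 (95) by Ckb and Lgi1. No doublet caller was run. Each age is 1 library, so age, library, sequencing depth, gene annotation and estrous stage cannot be told apart, and cells of 1 library are not replicates. No p-values are given. Intervals are 95% intervals for counting error only.

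Lcn2, Ltf and C3 are also neutrophil or macrophage products, so leukocyte markers were read first. Of 10 neutrophil markers, 8, with S100a8, S100a9, Ngp, Elane, Mpo and Csf3r among them, were at 0 UMI in adult cells, and the other 2 had 4 UMI in all. Adult clusters 4 and 5 had no neutrophil marker UMI. The 11 macrophage markers summed to 109 UMI in adult cells (0.778 UMI per 10000), with Ptprc, Adgre1 and C1qb at 0. They summed to 209 UMI at P4 (0.984 per 10000), with Ptprc and Adgre1 at 0. The lymphocyte markers had no UMI in adult cells. At P4, neutrophil markers summed to 28 UMI over 3 genes (0.132 per 10000, against 0.0285 in the adult) and lymphocyte markers to 12 UMI.

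In the adult oviduct, Lcn2, Clu, Ltf and C3 were higher in secretory-like than in multiciliated-like cells, and Spp1 was the exception. A level is given as UMI of the gene per 10000 UMI of the cell group. It is not scaled by transcript length, since a 3' assay counts transcript ends. Lcn2 was at 16.8 (15.8 to 17.9) in the 161 secretory-like cells and 0.769 (0.579 to 1.0) in the 220 multiciliated-like cells, a ratio of 21.9 (16.7 to 29.3), and without the deepest cell of cluster 1 the log2 fold went from 4.28 to 5.40. Clu was at 15.8 against 1.24, a ratio of 12.7 (10.2 to 16.0). Ltf was at 7.21 against 0.489, a ratio of 14.7 (10.4 to 21.5). These 3 genes thus rank in the order Lcn2, Clu and Ltf in secretory-like cells, with the intervals of Lcn2 and Clu overlapping. C3 had the smallest ratio of the 4 between these pooled classes, 4.74 (3.52 to 6.48). It was at 3.71 (3.23 to 4.24) against 0.783 (0.591 to 1.02). Cluster 3 held 42 of the 56 multiciliated-like C3 UMI. Cluster 0 was also set against cluster 1 without its deepest cell. That ratio was 50.8 for C3, 48.1 for Lcn2, 14.8 for Clu and 13.3 for Ltf. Between the pooled classes Spp1 went the other way, at 1.12 (0.859 to 1.42) against 5.38 (4.86 to 5.95). It was thus 4.83-fold (3.70 to 6.39) lower in secretory-like cells. Its multiciliated level rested on 3 cells, described with Spp1, and without them the ratio was 0.760 (0.546 to 1.05). For scale, the oviductal glycoprotein gene Ovgp1, the classic secretory product, had a ratio of 8.83.

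By the 2-fold rule, with a pseudocount of 0.1 per 10000, 4 of the 5 genes were higher in secretory-like cells and 1 was lower. Among the 5184 genes with a UMI in at least 10% of cells of either type, 11.1% were higher and 24.2% lower. The median log2 fold was 3.57 for the 5 genes and -0.25 for all measured genes. The clusters were built from the expression of the same cells, so these counts describe the clusters and test nothing.

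**Figure D1:**
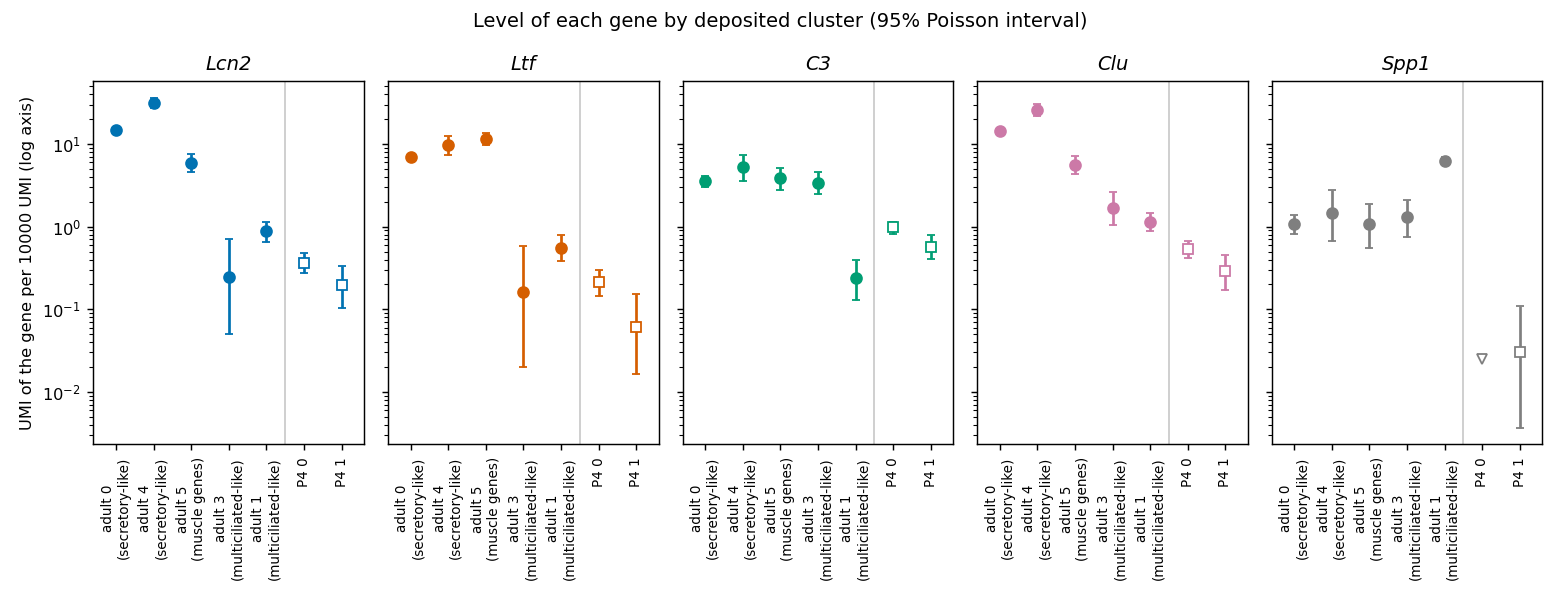
Level of each gene (UMI per 10000 UMI, log axis) in each deposited cluster, with filled circles for adult clusters, open squares for P4 clusters and bars for 95% Poisson intervals. An open triangle marks the upper limit where no UMI was counted. Lcn2, Ltf and Clu are highest in adult clusters 0, 4 and 5, C3 stays near the same level in adult clusters 0, 3, 4 and 5, and Spp1 is near the floor at P4.

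Over the 7 clusters, Lcn2 fell in the order adult 4, 0, 5 and 1, then P4 0, adult 3 and P4 1, the neighbours among the last 3 not separated within counting error. The place of adult 1 above P4 0 rested on 1 cell. Without its deepest cell, adult 1 was at 0.312 (0.185 to 0.494), against 0.363 (0.272 to 0.475) in P4 0. Ltf ran from adult 5 and 4, which were not separated, to adult 0 and 1 and then to P4 0, adult 3 and P4 1, again not separated. Clu ran from adult 4 to 0, 5, then 3 and 1, which were not separated, and P4 0 and P4 1. For C3 the 4 highest, adult 4, 5, 0 and 3, were not separated from their neighbours in this order, and P4 0, P4 1 and adult 1 followed in steps beyond counting error. For Spp1, adult 1 was followed by adult 4, 3, 0 and 5, not separated, and by P4 1 and P4 0 with 2 and 0 UMI.

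Within a cell type the counts were uneven from cell to cell. Lcn2 ranged from 0 to 43 UMI over the secretory-like cells with a median of 3, and 65 of the 161 cells had 5 or more. Clu ranged from 0 to 37 with a median of 3, and 66 cells had 5 or more. Ltf ranged from 0 to 38 with a median of 1, and 31 cells had 5 or more. C3 ranged from 0 to 18 with a median of 0, and 13 cells had 5 or more. Spp1 never exceeded 3 UMI in a secretory-like cell. Lcn2 and Clu were thus found in most of these cells, and Ltf and C3 in fewer of them. The share of secretory-like cells with a UMI was 77.6% for Lcn2, 74.5% for Clu, 50.3% for Ltf, 43.5% for C3 and 31.1% for Spp1. In multiciliated-like cells, which had nearly the same median depth (3194.5 against 3221 UMI), it was 5.91%, 19.5%, 7.27%, 9.55% and 33.6%. Free RNA in the droplets was not measured, and its part in the low multiciliated shares was not tested.

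Some deep cells lacked a gene as well. Among the 67 cluster 0 cells with at least 4000 UMI, 6 had no Lcn2, 3 no Clu, 19 no Ltf and 21 no C3. In 9 such cells with 20 or more Lcn2 UMI, Clu was never under 5 UMI, yet 5 of the 9 had no Ltf UMI. The tenth of adult cells richest in each gene held 60.6% of all Clu UMI, 68.2% of Lcn2, 76.2% of Ltf, 77.6% of C3 and 79.6% of Spp1.

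**Figure D2:**
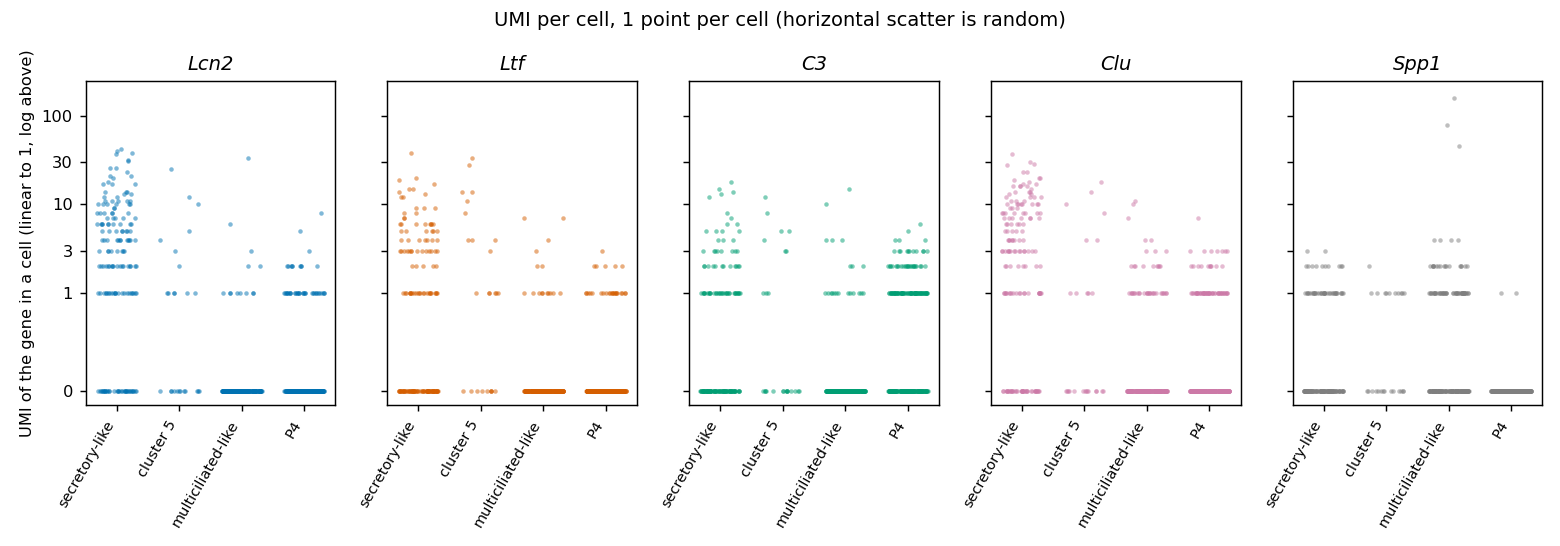
UMI of each gene in every cell, 1 point per cell, on an axis that is linear to 1 and logarithmic above, for adult secretory-like, cluster 5 and multiciliated-like cells and all P4 cells. Secretory-like cells spread up to 43 Lcn2 UMI while P4 cells stay at 8 or fewer for every gene, and 3 cells of cluster 1, plotted with the multiciliated-like cells, stand far above all others for Spp1.

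The small secretory-like cluster 4, which Dcpp3, Agr2, Ren1 and Ovgp1 led, carried the highest Lcn2 and Clu levels of any deposited cluster. Lcn2 was at 31.9 (27.6 to 36.7) in cluster 4 and 15.01 (14.0 to 16.1) in cluster 0, a ratio of 2.13 (1.81 to 2.49). Clu was at 26.0 (22.1 to 30.4) against 14.6 (13.6 to 15.7), a ratio of 1.78 (1.49 to 2.12). The step was smaller for Ltf, whose ratio was 1.39 (1.04 to 1.84), and the intervals included 1 for C3 (1.48, 0.985 to 2.17) and Spp1 (1.37, 0.597 to 2.80). Ovgp1 was 4.81-fold higher in cluster 4, so per Ovgp1 UMI every one of the 5 genes was lower there than in cluster 0 (for Lcn2, 0.113 against 0.256 UMI per Ovgp1 UMI). Of the 5 genes Lcn2 alone passed the 2-fold rule upward, beside 8.99% of 4474 measured genes, and none passed it downward, beside 20.8%. The Lcn2 call was narrow, with a log2 fold of 1.08 that lay between 0.78 and 1.19 under the alternatives run. Cluster 4 cells were shallow, with a median of 1185 UMI against 4107.5 in cluster 0. Their summed level of dissociation stress genes was 43.7 against 147 UMI per 10000, and its part in the differences was not tested.

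The deposited merged clustering of both ages cut the adult secretory-like cells differently, and the contrasts changed with the cut. Merged cluster 4 (85 adult cells, median depth 1177 UMI) took 24 of the 31 cells of adult cluster 4 with 49 of the 130 of cluster 0, and merged cluster 2 (98 adult cells, 5101 UMI) took 79 of cluster 0. Lcn2 differed little between them (merged cluster 4 over 2, 0.878, 0.735 to 1.04), and so did Clu (0.893, 0.743 to 1.07). Ltf was at a ratio of 0.495, C3 of 0.449 and Spp1 of 0.497. The Spp1 value rested on 1 cell with 79 of the 139 UMI in merged cluster 2, and without that cell its log2 fold went from -0.95 to 0.15. By the 2-fold rule none of the 5 was higher (4.15% of 5783 measured genes were) and 1, C3, was lower (23.9% were). The pseudocount left Ltf at a log2 fold of -0.997 and Spp1 at -0.953, just short of the rule. C3, at -1.12, lay between -1.54 and -0.977 under the alternatives run, so the rule did not set it clearly apart from Ltf.

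Multiciliated-like cluster 3 separated C3 from the other 4 genes. C3 was at 3.41 (2.46 to 4.61) in cluster 3 and 0.236 (0.129 to 0.397) in cluster 1, a ratio of 14.4 (7.72 to 28.6), and cells with a UMI made up 43.2% (16 of 37) and 2.73% (5 of 183). That level equalled the one in secretory-like cluster 0 within counting error (3.53, 3.03 to 4.08). Lcn2 and Ltf did not follow: cluster 3 had 3 and 2 UMI of them. Clu was at 1.70 against 1.15, a ratio of 1.49 (0.865 to 2.45). As a result C3 made up 50% of the UMI of the 5 genes in cluster 3, against 8.58% in cluster 0 and 2.61% in cluster 1. Of the 3 genes measured in this comparison, C3 was higher by the 2-fold rule (11.7% of 5483 genes were) and Spp1 lower (9.06% were), the latter through the 3 high cells of cluster 1.

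The cluster 3 value was partly carried by 1 cell. The highest C3 counts there were 15, 4, 4 and 4 UMI, and without the first cell the level was 2.35 (1.55 to 3.41). That cell had 8060 UMI in all, with 106 secretory, 89 multiciliated and 5 macrophage marker UMI, and was not tested as a doublet. The cluster 1 value rested still more on 1 cell, the deepest adult cell, with 16207 UMI, 52 secretory and 89 multiciliated marker UMI. It held 34 of the 52 Lcn2 UMI and 10 of the 14 C3 UMI of cluster 1, and without it Lcn2 was at 0.312 and C3 at 0.0694 there. Among the listed genes that were higher beside C3 in cluster 3, the protease inhibitor genes Wfdc12 and Wfdc15b were 108-fold and 24.4-fold higher than in cluster 1. The claudin gene Cldn4, which is on the secretory marker list, had 112 against 3 UMI, a ratio of 180 (59.9 to 884). Of 8 secretory markers measured, 4 were higher in cluster 3 by the 2-fold rule and none lower, beside 11.7% and 9.06% of all measured genes. The secretory markers summed to 48.1 UMI per 10000 in cluster 3 and 16.8 in cluster 1. Ovgp1 was at 24.6 and 6.16, with a UMI in 83.8% and 29.5% of cells. By the 2-fold rule 11 of the 15 genes of the dissociation stress list were higher, with the heat shock gene Hspb1 at 40.6-fold and Atf3 at 8.32-fold. The transcription factor gene Cebpb was 2.74-fold higher and Socs3, an inhibitor of STAT signalling, 3.62-fold. The summed stress level was 194 UMI per 10000 in cluster 3 and 62.2 in cluster 1, and the 11 macrophage markers summed to 33 UMI (2.68 per 10000) against 12 (0.203). Of these Cd68 had 9 and 1 UMI, while Ptprc, Adgre1, C1qa, C1qb, C1qc, Fcer1g, Tyrobp and Cd74 were at 0 in cluster 3. Most of the rest was Lyz2, a gene also on the antibacterial list, since Csf1r had only 2 UMI over adult cells outside the 3 rich in Spp1. Over the same adult cells Lyz2 had 28 UMI in 7 cells, with up to 18 in 1 cell. The part of secretory, stress and macrophage markers in the C3 difference was not tested.

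Cluster 5, led by smooth muscle genes, had more Ltf than cluster 0 while its Lcn2 and Clu were lower. Ltf was at 11.6 (9.69 to 13.8), above cluster 0 by a ratio of 1.68 (1.36 to 2.05), and not separated from cluster 4 (1.20, 0.877 to 1.66). Lcn2 was 2.51-fold (1.95 to 3.27) and Clu 2.60-fold (2.01 to 3.42) lower than in cluster 0. C3 (1.09, 0.761 to 1.52) and Spp1 (0.998, 0.487 to 1.89) were level with it within counting error. By the 2-fold rule none of the 5 was higher, beside 14.8% of 5835 measured genes, and 2 were lower, beside 8.41%.

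The cells of cluster 5 fell apart when split by smooth muscle genes. In the 18 cells with under 10 UMI of those genes, Ltf was at 22.8 (18.9 to 27.2) and C3 at 7.22 (5.13 to 9.86). In the 7 cells with 10 or more, Ltf was at 1.21 (0.485 to 2.49) and C3 at 0.689 (0.188 to 1.77). Lcn2 ran the other way, at 3.52 and 8.27, and Clu was at 6.48 and 4.83. Ovgp1 was at 50.1 and 27.7, so both sets held the secretory product. The sets differed in depth, with medians of 1914.5 and 7757 UMI. The 4 highest cells had 34, 28, 14 and 14 Ltf UMI, and without the highest cell the level of cluster 5 was 9.38. The Ltf and C3 levels of these low-muscle cells stood above those of the 127 cluster 0 cells under the same limit (7.07 and 3.65), while Lcn2 (15.4) and Clu (14.4) stood below.

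**Figure D3:**
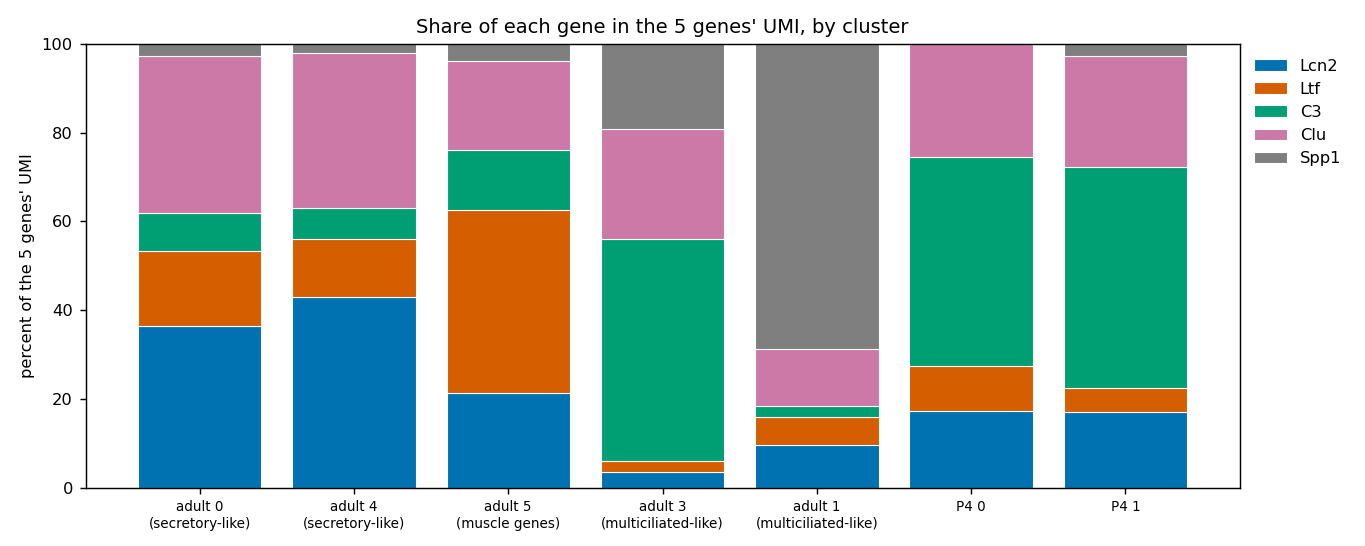
Share of each gene in the summed UMI of the 5 genes, by deposited cluster, as stacked bars that add to 100 percent. Lcn2 and Clu lead in adult clusters 0 and 4, Ltf in cluster 5, C3 in cluster 3 and in both P4 clusters, and Spp1 in cluster 1, where 3 cells hold most of its UMI.

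Outside 3 cells, Spp1 was counted at a low level in every adult cluster. The 3 cells, all in cluster 1, had 160, 79 and 46 Spp1 UMI, and the next highest cell had 4. Together they held 61.8% of the 461 adult Spp1 UMI. Without them, Spp1 was at 1.29 (1.10 to 1.49) per 10000 over 403 cells, with a UMI in 132 of them (32.8%). It was then at 1.07 in cluster 0, 1.51 in cluster 1, 1.30 in cluster 3, 1.47 in cluster 4 and 1.07 in cluster 5, with overlapping intervals. No cluster stood apart from the others for Spp1 once these cells were set aside. Akr1cl, which the same 3 cells carried, was also spread thinly over other cells, and the part of free RNA in these low counts was not tested.

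The 3 high cells carried genes of ovarian steroid hormone metabolism, a list drawn up after their leading genes were seen. The aldo-keto reductase gene Akr1cl had 50, 25 and 29 UMI in them, which was 104 of its 148 UMI in the adult library. Elsewhere it was in 39 cells at no more than 2 UMI each. Summed over the 3 cells there were 47 UMI of Fdx1, an electron carrier for steroid synthesis, 44 of Idh1, 14 of the steroid dehydrogenase gene Hsd3b1, 9 of Cyp11a1, the enzyme that opens steroid synthesis from cholesterol, 17 of the activin antagonist Fst and 6 of Inhba. Akr1c18, which encodes an enzyme that inactivates progesterone, had 32, 1 and 0 UMI. The granulosa and luteal genes Lhcgr, Foxl2, Amh, Cyp19a1 and Fshr were at 0 in all 3 cells. So were all 11 macrophage markers and the bone genes Bglap, Ibsp, Sp7 and Dmp1, while Runx2 had 14 UMI. The cells had 12124, 15527 and 6723 UMI in all. Multiciliated marker UMI numbered 56, 2 and 42. Pooled over the 3 cells, each multiciliated marker was lower than in the other cells of cluster 1, at ratios from 0 (Ccdc113) to 0.507 (Hydin). The merged clustering placed the first cell, with 160 Spp1 UMI, in merged cluster 1, which held 2 adult and 225 P4 cells. It did not hold the third cell. The markers of the second cell went furthest against its cluster, with 97 smooth muscle and 33 secretory marker UMI, 30 of them Ovgp1, no Foxj1 and 7 Ltf UMI. The merged clustering placed it in merged cluster 2. None of the 3 had a UMI of Lcn2 or C3.

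**Figure D4:**
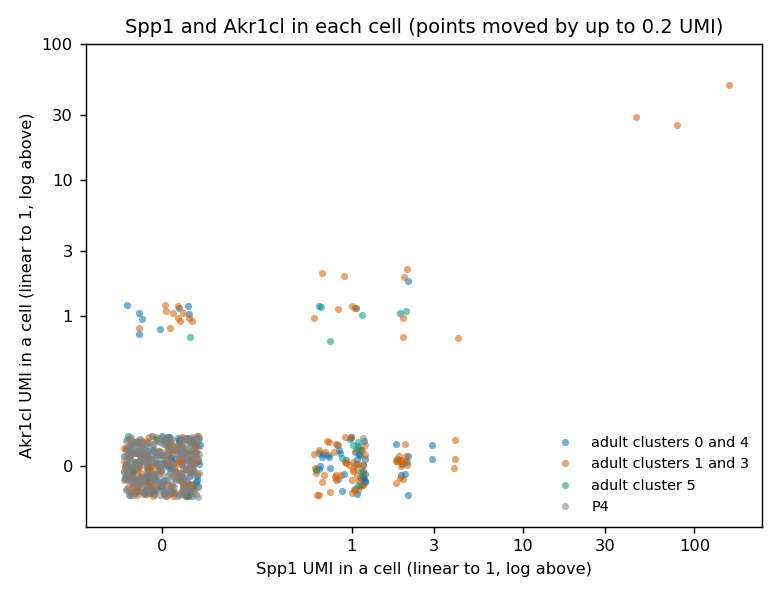
Spp1 UMI against Akr1cl UMI in each cell, both on axes linear to 1 and logarithmic above, with points moved by up to 0.2 UMI so that they do not hide each other. The 3 cells with 46 or more Spp1 UMI are also the 3 with 25 or more Akr1cl UMI, and all other cells have at most 4 and 2.

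Secretory-like cells often carried several of the 5 genes at once. In the secretory-like class, 92 of 161 cells (57.1%, 49.1 to 64.9) had a UMI of 3 or more of the 5 genes. In the multiciliated-like class 13 of 220 did (5.91%), in cluster 5 13 of 25 (52%) and at P4 16 of 263 (6.08%). All of Lcn2, Ltf, C3 and Clu were found in 48 secretory-like cells and in 2 P4 cells. After each cell was thinned to 1000 UMI, with shallower cells left out (30 of the secretory-like), the shares were 48 of 131 (36.6%, 28.4 to 45.5), 1 of 170 (0.588%), 5 of 21 (23.8%) and 0 of 263, which allows up to 1.39%.

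Lcn2, Ltf, C3 and Clu often met in pairs in the same secretory-like cells. Among secretory-like cells with Lcn2, 84.8% (106 of 125) also had Clu, against 38.9% (14 of 36) of those without. Of cells with Ltf, 91.4% (74 of 81) had Lcn2, against 63.8% (51 of 80). Of cells with C3, 72.9% (51 of 70) had Ltf, against 33.0% (30 of 91). Spp1 leaned the same way at full depth, with a UMI in 36% of cells with Lcn2 and 13.9% of those without. At 1000 UMI per cell, Clu was in 67.1% of cells with Lcn2 against 43.5%, and in 78.4% of cells with Ltf against 46.3%. C3 then met Lcn2 less often (18.8% of cells with Lcn2 against 26.1%), and Spp1 was in 14.1% of cells with Lcn2 against 8.70%. With the other genes the lean of Spp1 turned at this depth, where 16 cells had Spp1. It was in 3.92% of cells with Ltf against 17.5%, 7.14% with C3 against 13.6%, and 10.4% with Clu against 14.8%. At equal depth the gaps for Lcn2 with Clu and Ltf with Clu were thus smaller than at full depth (Ltf with Clu, 92.6% against 56.2%), and that for Lcn2 with C3 turned. As a description over the 161 cells, which share 1 library, Pearson's r of log2(1 + UMI per 10000) was 0.479 for Lcn2 and Clu, 0.413 for Ltf and Clu, 0.350 for Ltf and C3, 0.328 for Lcn2 and Ltf, 0.310 for C3 and Clu and 0.214 for Lcn2 and C3. With Spp1 no r exceeded 0.080. In the same cells r with the depth of the cell was 0.366 for Ltf, 0.316 for C3, 0.268 for Clu, 0.251 for Lcn2 and 0.157 for Spp1. The part of depth in the pair values was not tested. For C3 and Clu at P4, 25.6% of cells with C3 and 25.3% of those without had Clu. The other pairs of the 4 genes leaned together at P4 at full depth. C3 was in 65.9% of cells with Lcn2 against 40.2%, and in 64.3% with Ltf against 42.1%. Clu was in 34.1% of cells with Lcn2 against 23.7%, and in 46.4% with Ltf against 23.0%. Ltf was in 15.9% of cells with Lcn2 against 9.59%. After thinning, only 10 P4 cells had Lcn2 and 6 had Ltf.

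**Figure D5:**
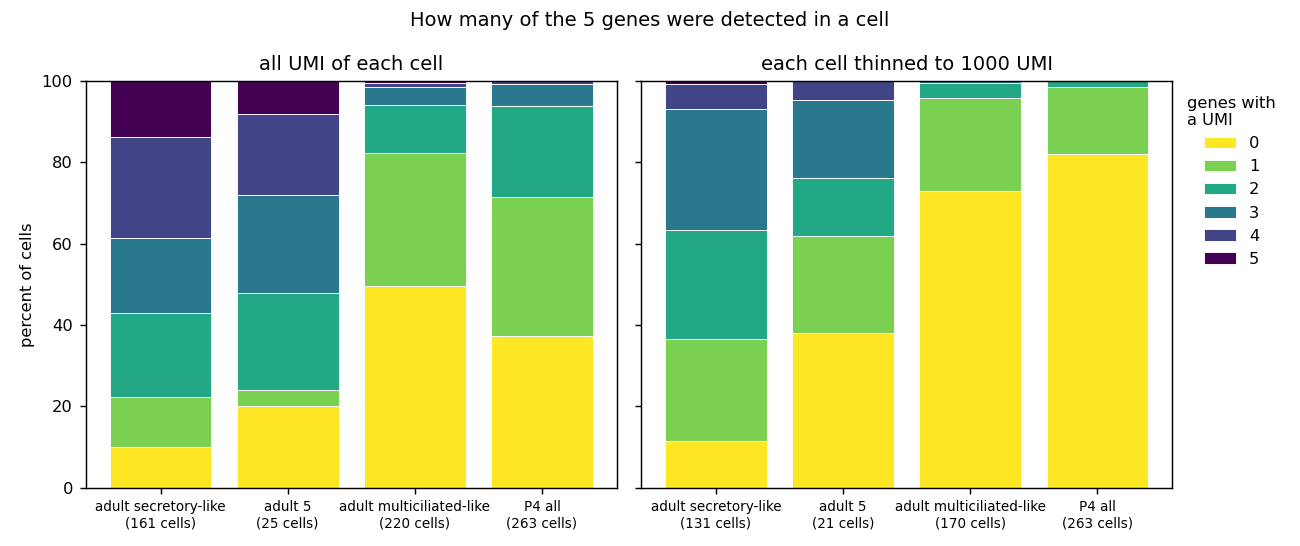
Percent of cells in which 0 to 5 of the 5 genes had a UMI, for all UMI of each cell (left) and after thinning each cell to 1000 UMI (right), with the number of cells under each bar. In the left panel 57.1% of secretory-like cells had 3 or more of the genes against 5.91% of multiciliated-like and 6.08% of P4 cells, and in the right panel 36.6% against 0.588% and 0.

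The genes whose pattern over all 406 adult cells was most like each of the 5 were chosen by Pearson's r among 4037 genes seen in at least 10% of cells. For Lcn2 these were Clu (0.673), Wfdc18 (0.642), Lrpap1 (0.640), Ovgp1 (0.629) and Sepp1 (0.629). For Clu they were Lcn2, Ovgp1 (0.646), Lrpap1 (0.623), Cd81 (0.621) and Ctsb (0.615). Lrpap1 encodes a chaperone of the LDL receptor family and Sepp1 a secreted selenium carrier. For Ltf they were Ovgp1 (0.535), Lcn2 (0.515), Clu (0.498), Emb and Ctsb, and for C3 Ltf (0.444), the lysosomal protease gene Ctsb (0.440), Ovgp1 (0.437), Clu (0.429) and Plat (0.415). Over all adult cells each of the 4 thus had another of the 4 among its 5 nearest genes, a measure that includes the contrast between cell types. Over the 161 secretory-like cells alone, Clu was the nearest gene to Lcn2 (0.479) and to Ltf (0.413). None of the 4 was among the 5 nearest to C3, which included Fn1 (0.377) and Lbp (0.351), or to Clu, for which Cd9 (0.559), Ctsb (0.556) and Ovgp1 (0.530) led. Over all adult cells Spp1 had no close neighbour, its highest values being Akr1cl (0.234) and Chchd3 (0.187).

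At P4 the 4 secretory genes were all low and C3 led them. C3 was at 0.852 (0.733 to 0.986) per 10000 over all P4 cells, Clu at 0.457 (0.371 to 0.557), Lcn2 at 0.311 (0.240 to 0.396) and Ltf at 0.165 (0.115 to 0.229). Cells with a UMI made up 44.5% (117 of 263) for C3, 25.5% for Clu, 16.7% for Lcn2 and 10.6% for Ltf. C3 counts were thin and even, with at most 6 UMI in a cell and 1 UMI as the median of positive cells. Spp1 had 2 UMI in 2 cells. C3 supplied 47.5% of the UMI of the 5 genes at P4 and 8.92% in the adult.

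Both P4 clusters had the same order. Cluster 1 over cluster 0 gave a ratio of 0.586 (0.398 to 0.843) for C3, 0.537 (0.307 to 0.895) for Clu, 0.541 (0.270 to 1.01) for Lcn2 and 0.284 (0.0729 to 0.805, from 4 UMI) for Ltf. All 4 leaned to cluster 0, the one led by multiciliated markers, but none passed the 2-fold rule. Ltf missed it through the pseudocount, which left a log2 fold of -0.961. Under the alternatives run, the log2 fold of Ltf lay between -1.47 and 0 and that of Clu between -0.996 and 0. For Lcn2 it lay between -3.78 and -0.31, and for C3 between -6.27 and -0.256. In this comparison 1.41% of 8721 measured genes were higher and 1.38% lower. Depth was similar, with medians of 7029 UMI in cluster 1 and 7856 in cluster 0.

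Between the libraries all 5 genes were higher in the adult, C3 least. Levels for this comparison used totals over the shared genes. The adult over P4 ratio was 22.0 (17.2 to 28.7) for Lcn2, 22.1 (15.7 to 32.1) for Ltf, 14.6 (11.9 to 18.2) for Clu and 2.3 (1.91 to 2.78) for C3. For Spp1 it was 308 (84.8 to 2551), with 461 adult UMI against 2, and without the 3 Spp1-rich cells its log2 fold went from 4.96 to 3.67. The C3 call was narrow, with a log2 fold of 1.13 that came to 0.82 with means over cells and 0.90 with a pseudocount of 0.5. It changed sign, to -1.89, when cells carrying 2 or more marker genes of other cell types were left out, which left 245 adult and 6 P4 cells. All 5 passed the 2-fold rule, beside 11.5% of 7283 measured genes. Their median log2 fold was 3.89 against -0.09 for all measured genes. More adult than P4 cells had a UMI of Lcn2 (37.2% against 16.7%), but the reverse held for C3 (24.9% against 44.5%), in P4 cells of more than 2 times the median depth. After thinning to 1000 UMI the P4 shares fell to 6.84% for Clu, 6.46% for C3, 3.80% for Lcn2, 2.28% for Ltf and 0 for Spp1. The adult secretory-like shares were then 58.8% for Clu, 21.4% for C3, 64.9% for Lcn2, 38.9% for Ltf and 12.2% for Spp1, so the C3 share was higher in adult secretory-like than in P4 cells at equal depth.

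Against P4 cells, adult secretory-like cells had 47.7 times the Lcn2 (37.1 to 62.2), 38.6 times the Ltf (27.3 to 56.1), 30.5 times the Clu (24.7 to 38.0) and 3.84 times the C3 (3.13 to 4.70). For C3 the log2 fold turned to -1.14 with the same cells left out, over 96 adult and 6 P4 cells. All 5 genes were higher by the 2-fold rule, beside 6.46% of 7048 measured genes. On the totals of each table, C3 in cluster 1 (0.236) was below either P4 cluster (0.979 and 0.574). It was the only one of the 5 genes for which an adult cluster lay under both P4 clusters with intervals apart. The interval of adult cluster 1 was 0.129 to 0.397, and that of P4 cluster 1 0.406 to 0.787. Fewer cells of a type and less RNA per cell were not separated in these pooled levels.

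Genes of estrogen and progesterone response differed in both directions. Esr1, the estrogen receptor gene, was at 1.60 per 10000 in secretory-like and 0.629 in multiciliated-like cells, a ratio of 2.55 (1.77 to 3.73), and between the libraries its ratio was 1.07 (0.870 to 1.32). The progesterone receptor gene Pgr had 14 adult UMI and 76 at P4, a ratio of 0.246. Of the 22 genes listed for steroid receptors and response, 10 were measured between the adult cell types, where 11.1% of all measured genes were higher and 24.2% lower. Of the 10, 4 were higher in secretory-like cells (among them Myc 5.74-fold, Ccnd1 5.54-fold and Esr1) and 1 lower. The latter was Areg, an epidermal growth factor family ligand, with 1 UMI against 96. Between the libraries, where 11.5% of all measured genes were higher and 10.4% lower, 14 were measured, with 4 higher in the adult (among them Areg 26.2-fold, Xbp1 3.19-fold and Ctsd 3.18-fold) and Pgr lower. Among secretory-like cells, the 59 with an Esr1 UMI had 1.26 times (1.11 to 1.44) the Lcn2 of the 102 without and 1.40 times (1.05 to 1.88) the C3. Ltf (1.13, 0.924 to 1.38), Clu (1.02, 0.893 to 1.17) and Spp1 (0.671, 0.396 to 1.13) had intervals that included 1. Cells with an Esr1 UMI were deeper (median 5051 against 1798 UMI), and the part of depth was not tested.

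Other defence genes were also found on both sides of the contrast of adult cell types, in which 11.1% of all measured genes were higher in secretory-like cells and 24.2% lower. Of 31 antibacterial and mucosal genes 8 were measured, 4 higher and 3 lower. Wfdc18 (13.3-fold), the mucin gene Muc1 (12.5-fold), Pglyrp1 (4.31-fold), which encodes a peptidoglycan binding protein, and the endotoxin co-receptor gene Cd14 (3.19-fold) were higher. Lower were Anxa1 (0.284), Wfdc15b (0.432) and Bpifb1. The last, also on the secretory marker list, had 0 UMI in secretory-like and 87 in multiciliated-like cells. Of 23 complement genes 4 were measured, with Cfi, the protease that cleaves active C3, 12.2-fold and C1qbp 2.49-fold higher. Of 18 iron handling genes 4 were measured, and only the ferritin heavy chain gene Fth1 differed, at a ratio of 0.395. Of 20 receptor genes for the 5 proteins 6 were measured, and Cd44, an osteopontin receptor, was 6.51-fold higher.

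Of 16 chaperone and folding genes 10 were measured between the adult cell types, and 6 were higher in secretory-like cells beside 11.1% of all measured genes, among them the disulfide isomerase genes Pdia6 (4.22-fold), Pdia3 (3.92-fold) and Pdia4 (3.38-fold) and the calreticulin gene Calr (3.01-fold), with 1 lower. Between the libraries 6 of 10 were higher in the adult, beside 11.5% of all measured genes, and none lower, with Hsp90b1 at 4.19-fold, Pdia3 at 3.50-fold and Hspa5 at 3.05-fold. Of 25 regulators of the NF-kB, C/EBP and STAT3 pathways and related epithelial factors, 13 were measured between cell types. Higher were Ehf (7.59-fold), Hif1a (3.08-fold), Nfkbiz (2.59-fold), Nfkbia (2.22-fold) and Spdef, which had 48 UMI against 1 (ratio 59.8, 10.2 to 2412). Cebpb was lower (0.413). Between the libraries none of 16 was higher, and Klf5 (0.165) and Bcl3 (0.223) were lower.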

How the data were processed

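The submitters' processing notes list mm10, Cell Ranger without a version, and Seurat 2.3.4. The authors deposited raw counts, as UMI per gene and cell, for each age and for both merged, with no normalization, and cluster numbers per cell. Of 807 adult columns under 2 prefixes, 401 barcodes occur under both, and 406 are distinct. For these the first prefix served (the second gives 498 Spp1 and 1089 Lcn2 UMI against 461 and 1087).

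UMI were summed over each cell group. Levels have exact 95% Poisson intervals, ratios exact conditional intervals and shares Clopper-Pearson intervals. A gene was measured where a UMI occurred in 10% of cells of either group, and the 2-fold rule used a pseudocount of 0.1 per 10000. Between ages totals cover shared genes, which leaves out 1.79% of adult and 13.4% of P4 UMI. From each list, up to 4 measured genes past 2-fold were named (1 gene is not reported here), and for each of the 5 genes the 5 most alike. Genes given for cluster 3 and for the 3 Spp1-rich cells, and the ovarian list, were chosen after their values were seen. The genes and lists were chosen with earlier results of these data known. Python 3.11.15, NumPy 2.4.6, SciPy 1.17.1, pandas 2.3.3 and matplotlib 3.10.9 were used, and the code was tested on simulated data.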

Additional observations from a re-analysis of the deposited data

How the results depend on the processing

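Of 99 alternative counts of genes past 2-fold upward, 91 stayed within 1.5 times the reported count. Cluster 4 over 0 went from 1 gene to 2 without cells carrying markers of other types and to 0 with median-of-ratios scaling or without ribosomal and mitochondrial genes. Cluster 3 over 1 went from 1 to 2 with means over cells. Cluster 5 over 0 went from 0 to 1 with means over cells, thinning or without cells of 10 or more smooth muscle UMI, and to 2 without cells carrying markers of other types. Of 495 alternative log2 folds of single genes 15 changed sign, 12 of them where the reported fold was under 2-fold and 3 where it was at least 2-fold. Ltf in cluster 3 over 1 was 0.51 after thinning. Without cells carrying markers of other types, C3 was -1.89 in adult over P4 and -1.14 in adult secretory-like over P4, where only 6 P4 cells remained. The share of secretory-like cells with 3 or more genes, 57.1%, was 36.6% after thinning, 67.9% without cells under 1000 UMI and 43.8% without cells carrying markers of other types. The causes were not tested. Leaving out the deepest adult cell or the 3 Spp1-rich cells was chosen after seeing the data. In cluster 3, Lcn2 and Ltf were near the floor of 3 counts. No paired analysis was possible because each age has 1 library.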
